A study of Mus musculus with 4 samples.

Results

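Platelet-derived growth factors (PDGFs) and their receptors were read in 4 bulk RNA sequencing libraries of sorted mouse lung endothelial cells. The genes followed here are the 4 ligand genes Pdgfa, Pdgfb, Pdgfc and Pdgfd and the 2 receptor genes Pdgfra and Pdgfrb, taken by symbol from the 17915 genes of the deposited table. All 6 were present, and all 6 were among the 13177 genes that passed the filter on low counts. All libraries came from mice of the genotype Cdh5-CreER;aSMA-LSL-Dre;NR1 that received tamoxifen 5 times and were studied after 6 weeks of transverse aortic constriction (TAC), a surgical narrowing of the aorta. Cdh5 drives the tamoxifen-inducible Cre recombinase in endothelium, so ZsGreen marks cells of endothelial origin. The Dre recombinase sits at the locus of alpha smooth muscle actin (aSMA), behind a stop cassette (LSL) that Cre removes. In cells where Cre has acted, Dre turns on tdTomato once that locus has been active, even briefly. The groups were 2 libraries of tdTomato+ cells, which carry this record, and 2 of ZsGreen+ cells, which do not. No unoperated or untreated mice were among the samples, and the labels give neither age nor sex. The labels call the samples biological replicates but do not tie them to separate animals, so p-values measure only the spread between these libraries.

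PDGFs are secreted dimers that act on receptor tyrosine kinases of neighbouring cells. PDGF-A and PDGF-B are cut inside the cell by proprotein convertases, whereas PDGF-C and PDGF-D leave it as latent proteins with a CUB domain that extracellular proteases remove. In vessels, endothelial PDGF-B recruits pericytes and smooth muscle cells that carry PDGF receptor beta, and in lung, PDGF-A from epithelium acts on fibroblasts that carry PDGF receptor alpha. The receptors mark mesenchymal cells and are not usual endothelial genes.

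The libraries held 17050673 to 18574737 estimated counts over 14969 to 15747 genes with a count. Endothelial markers were abundant: all 12 genes of the endothelial list had counts in every library. They summed to 14110 to 14360 CPM (counts divided by the scaled library total) in tdTomato+ and 15051 to 18534 CPM in ZsGreen+ libraries. All 12 macrophage markers also had counts in every library and summed to 661 to 5637 CPM. Having counts thus does not by itself set a cell type apart. Acta2, whose locus the recorder reads, stood at 304 and 528 CPM in tdTomato+ and at 87.6 and 82.9 CPM in ZsGreen+ libraries (edgeR adjusted p = 0.0432), so the labels and this check point the same way.

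In the deposited table, with GRCm38 coordinates, Pdgfa (NCBI Gene 18590) spans 138976014 to 139000792 of chromosome 5, and Pdgfra (18595) spans 75151322 to 75198206 of the same chromosome. Pdgfb (18591) lies at 79995865 to 80024614 of chromosome 15, Pdgfd (71785) at 6168363 to 6534284 of chromosome 9 and Pdgfrb (18596) at 61045127 to 61085067 of chromosome 18. Pdgfc (54635) ends at 81214040 of chromosome 3 and starts at 81036023 in the deposited table but at 81036416 in RefSeq. The table puts Pdgfa on the plus strand and GENCODE puts it on the minus strand. No source used here says whether counting used strand, and reads from a gene and its antisense partner may share one count. The antisense gene 6330403L08Rik covers 21.3% of the 50-base stretches of Pdgfa transcripts, and antisense genes cover 1.95% for Pdgfc (Gm16000) and 3.59% for Pdgfra (Gm42802). Transcripts of Pdgfb, Pdgfd and Pdgfrb shared no stretch of 50 bases with any other gene of that annotation, although the deposited counts of Pdgfb are not whole.

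Compared per length, in TPM as deposited (a length-corrected share of transcripts), the ligands stood far above the receptors. Pdgfb was the highest of the 6 genes in every library, followed by Pdgfa and then Pdgfd, and these 3 did not overlap one another within either group. Pdgfb ranked between 1110th and 1810th of 17915 genes by TPM. Pdgfc, Pdgfrb and Pdgfra lay between 0.18 and 1.73 TPM, and their order differed between libraries: Pdgfc led these 3 in replicate 1 of each group and Pdgfrb led them in replicate 2. The 4 ligands summed to 155 and 173 TPM in tdTomato+ and to 173 and 219.9 TPM in ZsGreen+ libraries. Both receptors together reached 2.2 and 2.6 TPM in tdTomato+ and 1.17 and 1.35 TPM in ZsGreen+ libraries.

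**Figure D1:**
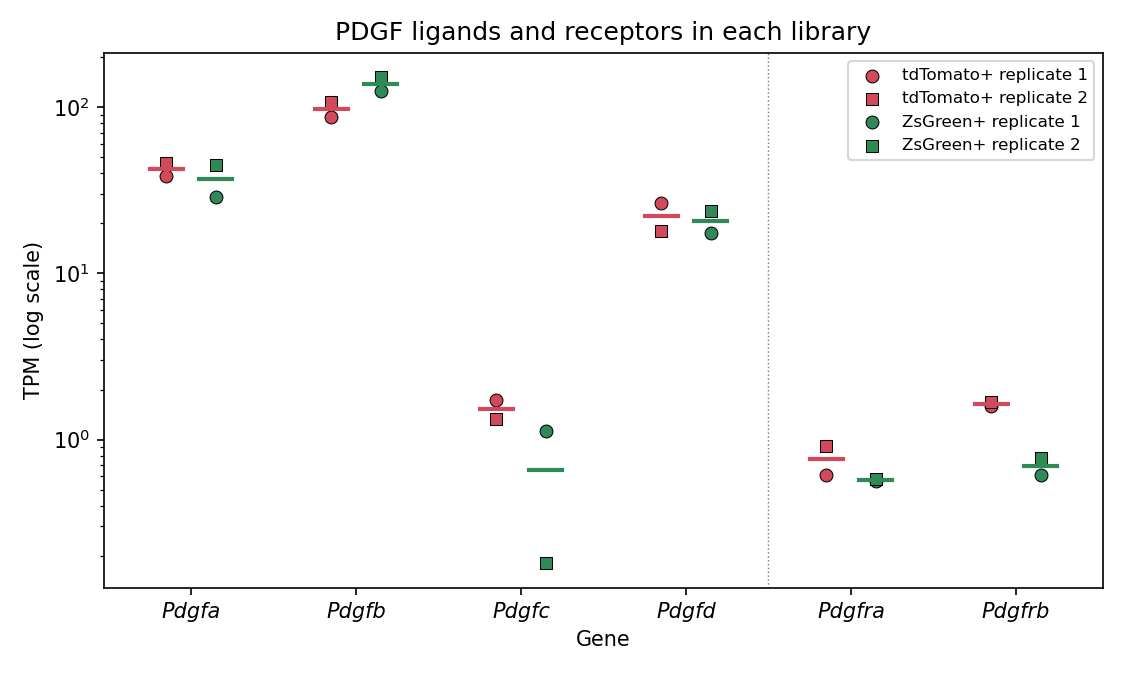
Level of each gene (TPM, log axis) in the 4 libraries; circles are replicate 1, squares replicate 2, and horizontal lines the group mean. Pdgfb, Pdgfa and Pdgfd lie at 17.53 TPM or above and Pdgfc, Pdgfra and Pdgfrb at 1.73 TPM or below in all libraries.

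Of the 6 genes, 0 passed edgeR's quasi-likelihood test at an adjusted p under 0.05 over all genes tested, where 0.304% of the 13177 genes passed. At an unadjusted p under 0.05 there were 2, Pdgfb and Pdgfrb, against 8.77% of all genes tested, and DESeq2 and limma-voom likewise called 0 of the 6 after adjustment, where they called 2.5% and 0.25% of all genes. The libraries of the groups did not overlap in CPM for 3 genes, Pdgfb (lower in tdTomato+) and Pdgfc and Pdgfrb (higher). The same held for 38.1% of all genes tested, 18.2% of them lower and 19.9% higher in tdTomato+ libraries, so 3 of 6 is near that background. In what follows, a positive log2 fold change stands for a higher level in tdTomato+ libraries, its standard error is abbreviated SE, and means carry the SD of n = 2 libraries.

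Pdgfb, which encodes the endothelial ligand that draws pericytes to vessels, stood at 119 and 161 CPM in tdTomato+ libraries. In ZsGreen+ libraries it stood at 210 and 221 CPM. Both tdTomato+ libraries thus lay below both ZsGreen+ libraries, with the larger spread among the tdTomato+ pair. The means were 139.9 ± 29.9 and 215 ± 7.46 CPM, a 1.54-fold lower level in tdTomato+ cells. The log2 fold change was -0.62 (SE 0.20, 95% interval -1.11 to -0.14), and it did not pass the test over all genes (edgeR adjusted p = 0.407). With any 1 library left out, the log2 fold change lay between -0.83 and -0.42. Its direction could hardly have turned there, since the groups did not overlap. On the deposited TPM values Pdgfb stood at 87.8 and 108 against 126 and 151 TPM. Endothelial markers lay lower as well, 10 of 12 of them, with a median log2 fold change of -0.16 (-0.22 to -0.005 over the alternatives) and none past the test (DESeq2 called 1, Cldn5). Among them Egfl7 stood at 2079 and 2097 against 3449 and 2304 CPM, and Eng, endoglin, at 4025 and 3657 against 5071 and 3366 CPM. Of the 8 lymphatic endothelial markers tested 7 lay lower, with a median of -2.21, and 4 fell (Mmrn1, Reln, Thy1 and Fxyd6), as against 0.304% of all genes called. DESeq2 called 6 of the 8 and limma-voom 2 (Fxyd6 and Thy1), against 2.5% and 0.25% of all genes. Mmrn1 and Reln thus did not pass with limma-voom. The lymphatic markers' summed level without Lyve1, the most abundant, was 176 to 217 CPM in tdTomato+ and 574 to 689 CPM in ZsGreen+ libraries. Lyve1 itself stood at 503 and 839.6 against 407 and 593 CPM, and Flt4, VEGF receptor 3, at 164 and 128 against 319 and 281 CPM. The part of lymphatic cells in the lower Pdgfb was not tested. In bulk samples, fewer cells of a type and less RNA per cell cannot be told apart.

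Pdgfa, the ligand that acts mainly through PDGF receptor alpha, stood at 44.6 and 55.3 CPM in tdTomato+ and at 41.1 and 53.5 CPM in ZsGreen+ libraries. The groups overlapped, and in each of them replicate 2 was the higher. Its log2 fold change of 0.08 (SE 0.22, edgeR adjusted p = 0.971) had a 95% interval that ran from a ratio of 0.737 to one of 1.51. A change of that size in either direction could not have been told from none in these libraries. The sign turned to -0.06 without tdTomato+ replicate 2 and to -0.092 without ZsGreen+ replicate 1.

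Pdgfd, a ligand of PDGF receptor beta that is secreted in latent form, stood at 42.5 and 32.2 CPM in tdTomato+ libraries and at 39 and 44.7 CPM in ZsGreen+ libraries. The groups overlapped, with the highest and the lowest tdTomato+ values on either side of ZsGreen+ replicate 1. The difference of -0.16 on the log2 scale (SE 0.22, edgeR adjusted p = 0.911) had a 95% interval for the ratio of 0.624 to 1.27. On the deposited TPM scale it was 0.092 with a pseudocount of 1, where the median of all genes tested also stood higher, at 0.12 against -0.01 in the count fit.

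Pdgfc, the latent ligand that acts on PDGF receptor alpha, was near the lower end of what was counted. It held 65 and 41 counts in tdTomato+ libraries (3.58 and 2.15 CPM) and 33 and 5 counts in ZsGreen+ libraries (2.09 and 0.274 CPM). The groups did not overlap, but tdTomato+ replicate 2 and ZsGreen+ replicate 1 were almost level and the gap came from ZsGreen+ replicate 2. The log2 fold change was 1.29 (SE 0.89, 95% interval -0.82 to 3.40, edgeR adjusted p = 0.802). It was 0.45 without ZsGreen+ replicate 2 and 3.36 without ZsGreen+ replicate 1, so a single library sets its size.

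**Figure D2:**
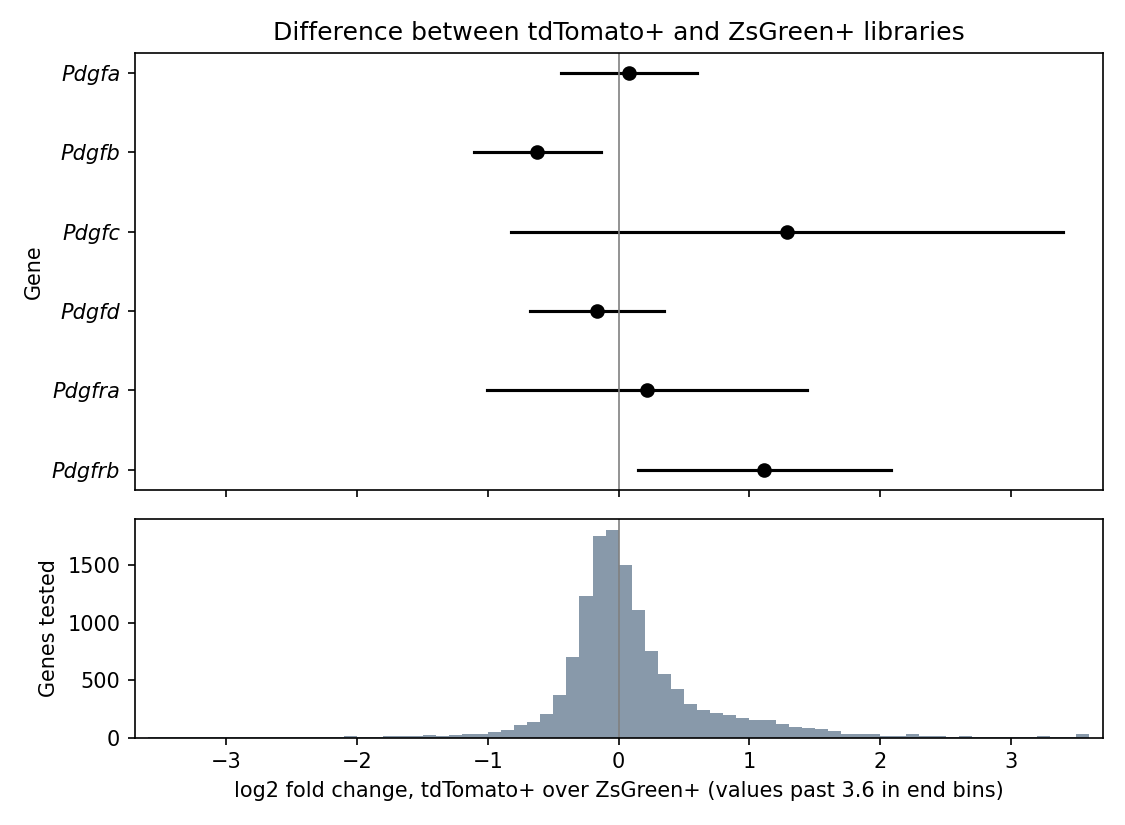
Upper panel, log2 fold change of tdTomato+ over ZsGreen+ libraries with its 95% interval for each gene; lower panel, the number of genes at each log2 fold change over all 13177 tested. The intervals of Pdgfb (-1.11 to -0.14) and Pdgfrb (0.14 to 2.08) do not reach 0 before adjustment over all genes, and that of Pdgfc is the widest.

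Pdgfb made up a smaller share of the ligand pool in both tdTomato+ libraries. It gave 56.8% and 62.4% of the summed ligand TPM in tdTomato+ libraries and 72.6% and 68.8% in ZsGreen+ libraries. Pdgfa gave 25.1% and 26.5% in tdTomato+ against 16.6% and 20.4% in ZsGreen+ libraries. Pdgfb thus stood at 2.27 and 2.35 times the TPM of Pdgfa in tdTomato+ cells and at 4.36 and 3.37 times in ZsGreen+ cells. The ratio did not overlap between groups, but 2 against 2 libraries cannot reach an exact two-sided permutation p below 0.333. Pdgfd gave 10.1% to 17% of the ligand TPM and Pdgfc at most 1.12%.

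**Figure D3:**
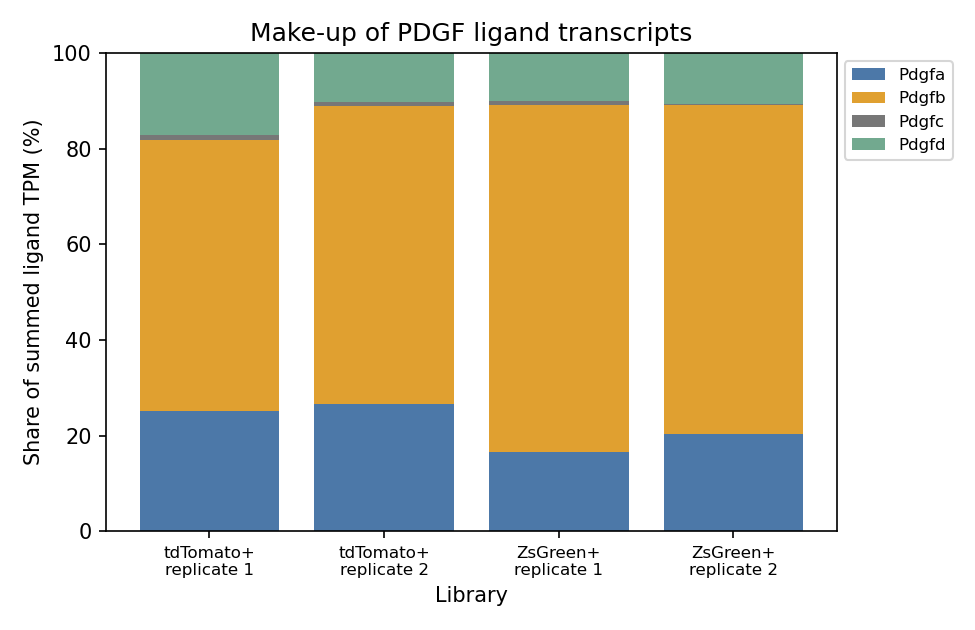
Share of the summed TPM of the 4 ligand genes (%) taken by each gene, one bar per library. Pdgfb takes the most in every library, from 56.8% in tdTomato+ replicate 1 to 72.6% in ZsGreen+ replicate 1.

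Pdgfrb encodes PDGF receptor beta, the receptor of PDGF-B on pericytes and smooth muscle. It stood at 5.12 and 5.67 CPM (93 and 108 counts) in tdTomato+ libraries and at 2.4 and 2.57 CPM (38 and 47 counts) in ZsGreen+ libraries. Replicates lay close together and the groups were well apart, at 5.39 ± 0.391 and 2.49 ± 0.12 CPM. The log2 fold change was 1.11 (SE 0.41, 95% interval 0.14 to 2.08), a 2.16-fold higher level that did not pass over all genes (edgeR adjusted p = 0.477). It was the steadiest of the 6 genes to the loss of a library, at 1.06 to 1.18 whichever was left out. On log2(TPM + 1), which understates changes of low genes, it was 0.64.

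Pdgfra, the receptor of PDGF-A and PDGF-C that marks lung fibroblasts, stood at 2.09 and 3.78 CPM (38 and 72 counts) in tdTomato+ and at 2.66 and 2.41 CPM (42 and 44 counts) in ZsGreen+ libraries. The tdTomato+ libraries lay on both sides of the ZsGreen+ ones. The difference of 0.21 on the log2 scale (SE 0.52, edgeR adjusted p = 0.965) had a 95% interval for the ratio of 0.496 to 2.71. It was 0.58 without tdTomato+ replicate 1 and -0.25 without tdTomato+ replicate 2. The TPM of Pdgfrb was 2.61 and 1.83 times that of Pdgfra in tdTomato+ cells and 1.09 and 1.33 times in ZsGreen+ cells.

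Markers of the cells that usually carry these receptors were read beside them. Of the 12 pericyte markers, 10 were tested, 5 higher and 5 lower, with a median log2 fold change of -0.23. That median changed sign with the filter, to 0.13 over 12 genes with none. With 50 counts in 2 libraries it was 0.16, but only 2 genes were left. It was 0.09 without ZsGreen+ replicate 2 and 0.048 on unfiltered log2(TPM + 1), where the median of all genes was 0.097. For pericyte genes edgeR, DESeq2 and limma-voom each called 0, and 1 had an unadjusted p under 0.05, against 8.77% of all genes. Mcam, also an endothelial gene, took most of their sum, at 302 and 426 against 296 and 424 CPM. The other 11 summed to 12.5 and 17.1 CPM in tdTomato+ and to 15.3 and 18.2 CPM in ZsGreen+ libraries, so the groups overlapped. Lamc3, the next in level, stood at 4.62 and 7.98 against 6.9 and 3.67 CPM. Among defining pericyte genes, named after their values were seen, the proteoglycan Cspg4 stood at 1.82 and 0.893 against 0.886 and 1.15 CPM. The G protein regulator Rgs5 stood at 1.82 and 0.893 against 0.569 and 1.1 CPM. Notch3, named in the same way, stood at 0.825 and 1.68 against 0.696 and 0.603 CPM. The potassium channel gene Kcnj8, also named after its values were seen, stood at 0.275 and 0.473 against 1.33 and 3.83 CPM. Trpc6 was at 0 in 1 library of each group. The part of pericytes in the Pdgfrb difference was not tested.

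Fibroblast markers were mostly higher in tdTomato+ libraries, where Pdgfrb also stood higher. Of 15 tested, 13 were higher and 2 lower in tdTomato+ libraries, with a median log2 fold change of 1.10 against -0.01 over all genes; it was 0.61 without tdTomato+ replicate 2 and 0.54 on unfiltered log2(TPM + 1). edgeR called 0 of them, with 7 at an unadjusted p under 0.05, DESeq2 called 3 (Col1a1, Col3a1 and Pi16) and limma-voom 0. Of all genes tested, 8.77% had an unadjusted p under 0.05, DESeq2 called 2.5% and limma-voom 0.25%. The 16 listed genes summed to 348 and 589.6 CPM in tdTomato+ and to 219 and 205 CPM in ZsGreen+ libraries. Col1a1, a chain of type I collagen, stood at 65.4 and 144 against 23.2 and 46.3 CPM, and the matrix gene Mfap4 at 66.7 and 87.9 against 76.2 and 45.1 CPM. Fgf10 was at 0 in 1 library of each group. Within the tdTomato+ group Pdgfra and the fibroblast sum were both higher in replicate 2 than in replicate 1, whereas Pdgfrb was nearly level. Across the groups Pdgfra did not follow that sum. Its lowest level, 2.09 CPM, was in tdTomato+ replicate 1, where the fibroblast sum was above that of either ZsGreen+ library. All 12 macrophage and all 9 alveolar type 2 markers, given below, also had a log2 fold change above 0. Both tdTomato+ libraries lay above both ZsGreen+ libraries for 19.9% of all genes tested, Pdgfrb among them. The part of fibroblasts, macrophages or type 2 cells in the Pdgfrb difference was not tested.

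**Figure D4:**
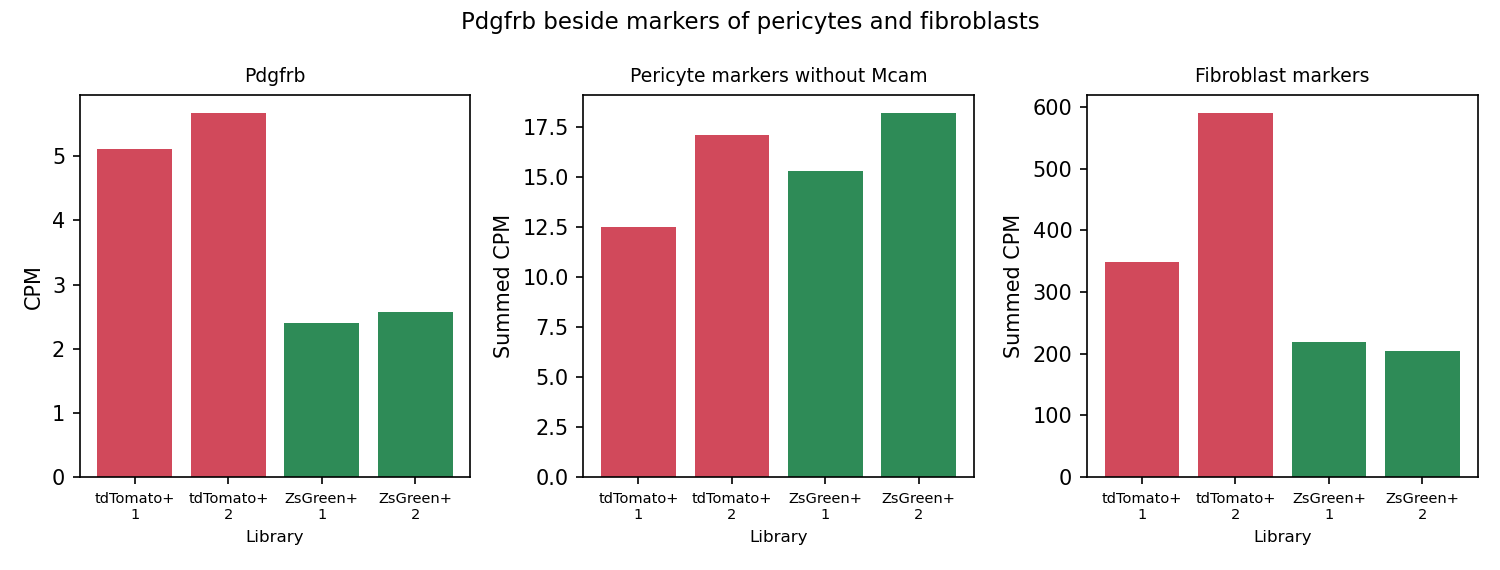
Pdgfrb (CPM), the sum of 11 pericyte markers without Mcam and the sum of 16 fibroblast markers (CPM) in each library, tdTomato+ in red and ZsGreen+ in green. Pdgfrb and the fibroblast sum are higher in both tdTomato+ libraries, and the pericyte sums overlap between the groups.

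Markers of smooth muscle, which responds to PDGF-B, gave a median of 0.66 on the log2 scale over 8 tested, 6 higher and 2 lower. edgeR called 1 of them, Acta2, where 0.304% of all genes passed. The recorder reads the Acta2 locus, so this call is tied to the sort and is no separate result about smooth muscle. The list median was 1.07 without tdTomato+ replicate 1 and 0.22 without tdTomato+ replicate 2. Tagln, transgelin, stood at 1336 and 1787 against 1300.2 and 894 CPM and Smtn, smoothelin, at 236 and 286 against 307 and 320 CPM. Myocd was at 0 in 1 ZsGreen+ library and Ntf3 in both. Among other sources of PDGF ligands, platelet and megakaryocyte markers summed to 23.7 and 28.6 CPM in tdTomato+ and to 19.7 and 39.2 CPM in ZsGreen+ libraries, led by Pf4 at 9.7 to 19.8 CPM and Itga2b at 3.67 to 9.05 CPM. Macrophage markers were higher in all 12 tested (median 1.05; leaving out 1 library gave 0.42 for tdTomato+ replicate 1, and 2.37 and 0.41 for ZsGreen+ replicates 1 and 2) and summed to 5637 and 2653 against 3153 and 661 CPM, with Lyz2, lysozyme, at 3953 and 1969 against 2269 and 469 CPM and Chil3 at 1089 and 308 against 515 and 73 CPM. Alveolar type 2 markers were higher in all 9 (median 0.91, but 1.46 and 0.61 without ZsGreen+ replicates 1 and 2). They summed to 489 and 566 against 351 and 206 CPM. Sftpc stood at 251 and 282 against 163 and 68.4 CPM and Abca3 at 78.5 and 85.1 against 88.9 and 66 CPM. edgeR called none of these platelet, macrophage or type 2 genes, of which 0, 2 and 4 had an unadjusted p under 0.05, and DESeq2 called 0, 1 and 2. Of all genes tested, 8.77% had an unadjusted p under 0.05, and DESeq2 called 2.5%. The part of these cells in the ligand levels was not tested. Pdgfb is also known from arterial and tip cell endothelium, whose 15 markers had a median of 0.19, 9 higher and 6 lower. edgeR called 0 of them, and 7 had an unadjusted p under 0.05, 5 higher and 2 lower, against 8.77% of all genes. DESeq2 called 3 (Bmx, Gja5 and Hey2), each higher in tdTomato+ libraries, against 2.5% of all genes. Gja4, a connexin, stood at 300 and 514 against 439 and 463 CPM and Sox17 at 164 and 213 against 218 and 304 CPM.

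Genes that prepare PDGF ligands or offer them to receptors were divided. Of 11 such genes tested, 6 were higher and 5 lower, with a median log2 fold change of 0.05 and none past edgeR's test over all genes. Pcsk6, a proprotein convertase, had the largest difference of the list, at 1.65 and 1.42 CPM in tdTomato+ and 10.7 and 31.2 CPM in ZsGreen+ libraries. The ZsGreen+ libraries differed widely from each other, yet both lay far above the tdTomato+ pair, with a difference of -3.77 on the log2 scale (SE 0.57, edgeR adjusted p = 0.0769). Furin, the convertase best known for cutting PDGF-A and PDGF-B, stood at 194 and 191 against 235 and 296 CPM (-0.46, SE 0.19), and the related Pcsk5 at 86.7 and 103 against 52.6 and 56.8 CPM (0.79, SE 0.18). These 3 convertases thus did not share a direction. Lrp1, an endocytic receptor that joins PDGF receptor beta signalling, stood at 51.3 and 32.2 against 24.1 and 10.1 CPM (1.29, SE 0.43). The activators of the latent ligands, named after their values were seen, overlapped between groups: Plat, tissue plasminogen activator, which releases PDGF-C, at 326 and 591 against 300.2 and 467 CPM, and Plau, urokinase, which releases PDGF-D, at 8.09 and 9.45 against 8.04 and 11.1 CPM.

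Signalling proteins downstream of the receptors were mostly close to level. Of 35 adaptors and enzymes, 11 were higher and 24 lower with a median log2 fold change of -0.08, and none passed edgeR's test over all genes. The smallest p-values were those of Src, the kinase bound by activated PDGF receptors, at 8.25 and 10.6 against 2.97 and 4.98 CPM (1.24, SE 0.40), and the GTPase gene Hras at 60 and 86.7 against 111 and 117 CPM (-0.63, SE 0.22). The adaptor Nck2 stood at 46.3 and 41.7 against 65.1 and 57.2 CPM, and the transcription factor Stat5a at 18.3 and 17.1 against 14.6 and 9.91 CPM.

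Of 12 genes that restrain receptor signalling, 8 lay below 0 and 4 above, with a median of -0.13 and none past edgeR's test over all genes. The median was 0.066 without tdTomato+ replicate 2, where that of all genes was 0.014. On log2(TPM + 1) it was 0.055, below the 0.12 of all genes on that scale. The sign of the list median thus depended on the setting. Ptprj, a receptor tyrosine phosphatase, stood at 25.2 and 37.7 against 17 and 14.5 CPM (1.00, SE 0.27). Dusp6, a phosphatase of ERK kinases, stood at 199 and 250 against 272 and 471 CPM (-0.73, SE 0.29). The Sprouty genes Spry1 and Spry4, feedback inhibitors of the same kinase cascade, stood at 73.8 and 34.5 against 102 and 87.3 CPM and at 64.1 and 77.3 against 78 and 132 CPM. Genes that respond to growth factors within minutes had a median of 0.05 over 12 tested, 7 higher and 5 lower, and none passed. Their summed level differed more between replicate numbers, at 11965 and 13113 CPM in replicate 1 of the tdTomato+ and ZsGreen+ groups and 8792 and 7509 CPM in replicate 2, than between the groups. Egr3 stood at 34 and 24.2 against 18.9 and 16.3 CPM (0.72, SE 0.25), Egr2 at 32.3 and 21.3 against 22.1 and 10.7 CPM, Myc at 239 and 216 against 195 and 180 CPM and Ier3 at 664 and 502 against 974 and 612 CPM.

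The relatives of the PDGF receptors among class III receptor tyrosine kinases, with their ligands, gave no call among 6 genes tested (median 0.13). Kit, the stem cell factor receptor that capillary endothelium also carries, stood at 123 and 88.6 against 160 and 154 CPM (-0.57, SE 0.21). Its ligand Kitl varied within the groups, at 51.8 and 81.6 against 41.8 and 143 CPM. Csf1r, the macrophage growth factor receptor, stood at 51 and 27.9 against 33.2 and 11.9 CPM, and its ligand Csf1 at 52.1 and 51.1 against 44.4 and 38.6 CPM. Over these 5 lists edgeR called 0 of 76 genes tested, and 11 had an unadjusted p under 0.05, or 14.5% beside 8.77% of all genes. DESeq2 called 2 of the 76, Pcsk5 and Pcsk6, and limma-voom called 0, beside 2.5% and 0.25% of all genes. Over 15 alternatives the list medians ran from -0.15 to 0.38 for ligand processing, -0.10 to 0.098 for signalling, -0.28 to 0.066 for restraint, -0.17 to 0.42 for response genes and 0.031 to 0.26 for the receptor relatives.

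**Figure D5:**
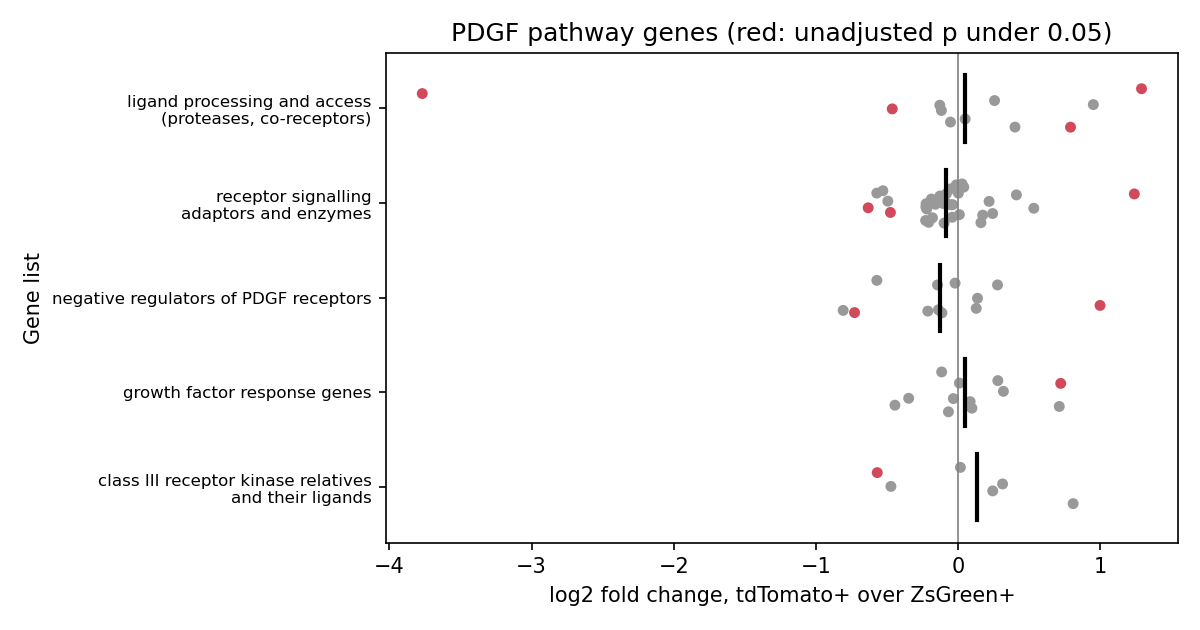
log2 fold change of tdTomato+ over ZsGreen+ libraries for each tested gene of 5 PDGF pathway lists; black bars mark list medians and red points an unadjusted p under 0.05. The medians lie between -0.13 and 0.13, and the point at -3.77 is Pcsk6.

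Genes with the profile most like each member were found by Euclidean distance between log2 CPM values centred over the 4 libraries, among the other genes at a mean of 5 CPM or more; with so few libraries close profiles are many, and the distances are a description. Nearest to Pdgfb were Frmd6, at 34.1 and 43.9 against 57.4 and 61.7 CPM (distance 0.06), and Lzts1 (0.061). Nearest to Pdgfrb were Ulk3, at 12.3 and 14.8 against 6.39 and 6.79 CPM (distance 0.099), and Lcp2 (0.12). Pdgfa lay closest to Fut11 and Zfp777 (0.038 and 0.04), Pdgfd to Srp19 and Gna13 (0.019 and 0.039), Pdgfra to Ager and Mrnip (0.11 and 0.15), and Pdgfc to B3gnt7 and F7 (0.1 and 0.21). Like Pdgfc, B3gnt7 was far lower in ZsGreen+ replicate 2 (1.81 CPM) than in the other 3 libraries (10.1 to 16.9 CPM).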

How the data were processed

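The members and gene lists were chosen with earlier results of these data known. Small amounts of RNA (RNeasy Micro kit) went through whole-transcriptome amplification before MGI library preparation, per the labels' protocols; no molecular identifiers are named. The submitters' processing notes name RSEM 1.3.1, DESeq2 1.4.5 and GRCm38 with no roles; no source used here gives the aligner or whether counting used strand. The deposited estimated counts (16.2% to 17.9% of values not whole) were rounded. Deposited TPM values were used as they are for levels between genes; the FPKM and the normalized count signal that the authors deposited were not tested.

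edgeR 4.0.16 in R 4.3.3 (two-sided quasi-likelihood test, TMM, filterByExpr with a minimum count of 10) compared 2 tdTomato+ with 2 ZsGreen+ libraries, with groups from the sample titles and Benjamini-Hochberg adjustment over 13177 genes at 0.05. CPM used TMM-scaled totals; SE was the size of the log2 fold change divided by the root of the F statistic, and 95% intervals use the fit's degrees of freedom. Scripts were tested on simulated data. All 6 members are named. So are up to 4 genes per pathway list (smallest p, mean of at least 1 CPM), 2 per marker list (highest mean CPM) and 2 nearest profiles per member. The 14 lists hold 179 genes, 1 of which is not analysed here. Alternatives were RLE, upper quartile and no factors, DESeq2 1.42.0, limma-voom (limma 3.58.1), no filter, 50 counts in 2 libraries, each library left out with the same genes kept, a replicate block, and limma on log2 TPM plus 1 or 0.1.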

Additional observations from a re-analysis of the deposited data

How the results depend on the processing

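The 6 genes gave 0 calls under 14 of 15 alternatives. The exception was the fit with a replicate block, which called 1, Pdgfb, at -0.64 (edgeR adjusted p = 0.0436), where it called 934 of all genes and 44 list genes. The numbers are shared by label only: deviations of same-numbered libraries correlated at 0.455 over genes, but no label ties them to a shared animal or day. Pdgfb, Pdgfc and Pdgfrb kept their sign in each alternative that tested them. The groups did not overlap for these genes, so leaving out 1 library could hardly turn the sign. Pdgfd turned to 0.092 on log2(TPM + 1), with or without a filter, and to 0.096 on log2(TPM + 0.1). With 1 library left out, the log2 fold change ran from -0.092 to 0.28 for Pdgfa, -0.38 to 0.046 for Pdgfd and -0.25 to 0.58 for Pdgfra. Pdgfc and Pdgfra were not tested with 50 counts in 2 libraries, nor Pdgfra on filtered TPM.

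The count of all genes called was 40. It was 330 with DESeq2, 128 without a filter, 21 with library totals alone (an alternative added after seeing the data), 22 on log2(TPM + 0.1), 0 on unfiltered log2(TPM + 1), and 1 to 162 with 1 library left out: leaving out tdTomato+ libraries gave 17 (replicate 1) and 4 (replicate 2), and leaving out ZsGreen+ libraries gave 162 (replicate 1) and 1 (replicate 2). List genes called were 5, all markers, against 19 with DESeq2, 11 without a filter, 3 with upper quartile factors and with limma-voom, 2 on each filtered TPM scale, 0 on unfiltered TPM, 1 with library totals alone and 0 to 13 with 1 library left out. Of the 76 pathway genes edgeR called 0, against 10 with the replicate block (Csf1r, Dusp6, Egr2, Hras, Lrp1, Pcsk5, Pcsk6, Ptprj, Spry1 and Src), Pcsk5 and Pcsk6 with DESeq2, and Pcsk6 alone without a filter and without ZsGreen+ replicate 1. The cause of these differences was not tested. Pdgfc, Pdgfra and Pdgfrb rest on 5 to 108 counts per library, and amplified reads without molecular identifiers are not independent molecules.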
